A study of Irpex lacteus with 14 samples.

Results

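In mycelium of Irpex lacteus, 53 of 967 genes had their lowest transcript level on wheat straw, at least 2-fold below each of the other 4 growth substrates. A second condition left 44 of them, which are described here. The 44 genes were thus chosen from the deposited values by 2 conditions. The lowest of the maltose, cellulose, aspen and pine values had to exceed the wheat straw value by 1 or more on the log2 scale, a difference called the gap below. The lower of the maltose and cellulose values could exceed the higher of the aspen and pine values by less than 0.5. This leaves out genes in which both woods lay 0.5 or more below both maltose and cellulose. Genes with a smaller or partial drop on the woods remain. The conditions use all 5 values of a gene, so every value of these genes below is a description of the set and not a test of it.

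Irpex lacteus is a white-rot basidiomycete of the order Polyporales, here strain CCBAS Fr. 238 617/93, and polyadenylated RNA was sequenced from shaken cultures of 100 ml after 3 days at 30 °C. The groups were wheat straw (3 libraries), pine, a softwood (2 libraries), aspen, a hardwood (3 libraries), cellulose in the form of Avicel, a microcrystalline preparation (3 libraries), and maltose (3 libraries). Each solid was added at 15 g per litre, with 2.5 g per litre of maltose for straw, pine and cellulose, while the maltose cultures received 20 g per litre of the sugar and no solid. For aspen the label does not give a readable amount of maltose. Straw and pine fragments passed a 2 mm limit, whereas aspen came from a 1 mm Wiley mill, so substrate and grinding cannot be told apart for aspen. All 5 media shared the same salts, ammonium tartrate, yeast extract and thiamin, and the labels name 1 strain.

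White-rot fungi decay plant cell walls by secreting enzymes that cut cellulose and hemicellulose and by oxidising lignin. Many of the genes involved are controlled by the carbon source: free sugars commonly repress them, and fragments released from the wall commonly induce them. Wheat straw is a grass material with walls rich in arabinoxylan and ester-linked phenolic acids, whereas hardwoods and softwoods differ from grasses, and from each other, in their hemicelluloses and lignin. The files pair no gene ID with a name or function, so the genes below carry only their ID numbers from the Joint Genome Institute's MycoCosm portal, and no role is given to them.

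For each gene and substrate the authors deposited 1 normalized log2 read count. No spread between libraries accompanied it, the depth of the libraries is unknown, and no standard deviation or p-value can be given. The 4 differences of a gene from its straw value share that 1 value, so an error in it would move all 4 together. The normalized read count is not divided by gene length, so an order of levels between genes is an order of read counts. Here all genes means the 967 kept of the 977 different gene IDs deposited, and every share refers to that list. The list is not taken to be the whole gene set of the fungus, and how its genes were chosen is unknown here. Shares, percentiles and scalings therefore refer to this list only and not to the genome. The column medians of all genes lay 0.67 (pine), 0.52 (aspen), 0.39 (wheat straw) and 0.30 (cellulose) above maltose, and the median difference per gene from maltose was 0.43, 0.10, 0.09 and 0.03 on these substrates.

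**Figure D1:**
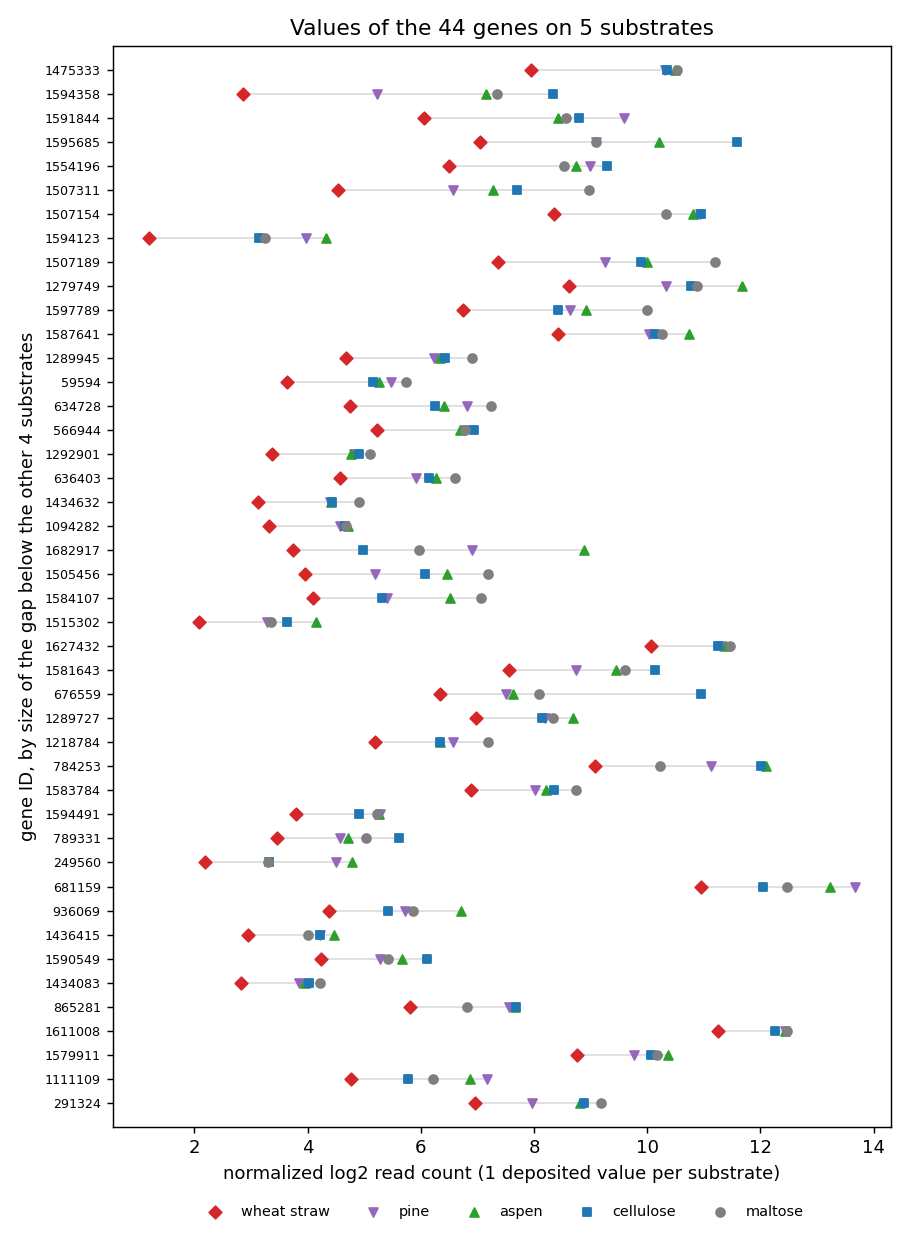
Normalized log2 read counts (x axis) of the 44 genes (y axis, gene IDs, largest gap at the top), with 1 symbol per substrate and a grey line over the range of the gene. The wheat straw symbol is the leftmost in every row, as the choice of the genes requires, and the order of the other 4 symbols changes from row to row.

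The 44 genes were low on straw relative to the rest of the table and nearer to its middle elsewhere. Their median log2 value was 4.97 on wheat straw (31.4 normalized counts), against 6.86 on pine, 7.21 on aspen, 7.30 on cellulose and 7.21 on maltose (116, 148, 158 and 148 normalized counts). The straw value was the lowest of the 5 in 30.1% of all genes. All 967 genes had medians of 8.61 on wheat straw, 8.89 on pine, 8.74 on aspen, 8.52 on cellulose and 8.22 on maltose. The median gene of the set stood at percentile 13.0 of the table on straw, against 25.4 on pine, 29.7 on aspen, 33.5 on cellulose and 35.8 on maltose. The set makes up 4.55% of the genes. Of the linear values summed over all genes, it held 0.469% on straw, against 1.40% on pine, 2.77% on aspen, 1.91% on cellulose and 2.10% on maltose. Below the table's median were 38 of the 44 genes on straw, against 31 on pine, 29 on aspen, 28 on cellulose and 25 on maltose.

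**Figure D2:**
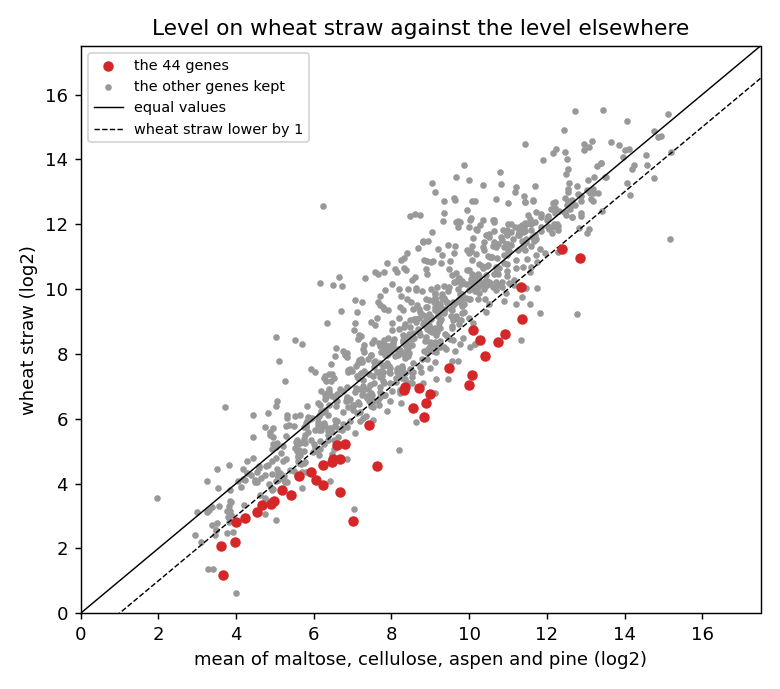
Wheat straw value (y axis, log2) against the mean of the other 4 substrates (x axis, log2) for the 44 genes (red) and the other genes kept (grey). The set runs from a straw value of 1.19 to 11.25 and lies below the dashed line that marks a straw value lower by 1.

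Against each single substrate all 44 genes were lower on straw by 1 or more, which the choice of the genes fixes. In the whole table, 22.0% of genes were lower on straw than on pine by that size, 17.2% than on aspen, 18.6% than on cellulose and 19.9% than on maltose. The median straw difference of the set was -1.52 from pine, -1.88 from aspen, -1.62 from cellulose and -1.84 from maltose, where the medians of all genes were -0.34, 0.01, 0.04 and 0.09. A 4-fold difference (2 on the log2 scale) was reached by 14 of the 44 genes against pine (4.14% of all genes), 21 against aspen (5.17%), 14 against cellulose (5.79%) and 20 against maltose (5.38%). These genes were 35.0% of all genes that were 4-fold lower on straw than on pine, 42.0% of those lower than on aspen, 25.0% of those lower than on cellulose and 38.5% of those lower than on maltose.

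The gap, the smallest of the 4 differences, was 1.21 in the median gene and 2.38 at most. It was from 1 to under 1.5 in 29 genes, from 1.5 to under 2 in 9 genes and 2 or more in 6 genes. The last 6 genes differed in how even they were on the other substrates.

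Gene 1475333 had the largest gap of the set. It was at 7.94 on wheat straw, against 10.32 on pine, 10.48 on aspen, 10.34 on cellulose and 10.52 on maltose. The other 4 values lay within 0.20 of each other, and straw was 5.20-fold below the nearest of them. Gene 1554196 varied by 0.77 over the other 4 substrates. It was at 6.50 on straw, against 9.00 on pine, 8.74 on aspen, 9.30 on cellulose and 8.53 on maltose, and its straw value was 4.09-fold below that on maltose. Gene 1591844 was at 6.05 on straw, against 9.59 on pine, 8.42 on aspen, 8.79 on cellulose and 8.56 on maltose. It was 5.14-fold below aspen and 11.6-fold below pine, where it was highest.

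The other 3 genes with a gap of 2 or more were uneven. Gene 1594358 was at 2.86 on straw, against 5.22 on pine, 7.15 on aspen, 8.34 on cellulose and 7.34 on maltose. Its straw value stands for 7.25 normalized counts. Pine lay between straw and the remaining substrates: the straw value was 5.15-fold lower than that on pine and 44.6-fold lower than that on cellulose. Gene 1595685 was at 7.04 on straw, against 9.09 on pine, 10.20 on aspen, 11.58 on cellulose and 9.10 on maltose, so that cellulose, and less so aspen, stood above an equal level on pine and maltose. Gene 1507311 was at 4.54 on straw, against 6.56 on pine, 7.27 on aspen, 7.69 on cellulose and 8.97 on maltose, a descent from maltose through cellulose and the woods to straw.

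In 24 of the 44 genes the values on pine, aspen, cellulose and maltose lay within a 2-fold range of each other, as they did in 39.8% of all genes. The gap exceeded the range of the other 4 values in 29 genes. These include the 24 genes by construction, because every gap of the set is 1 or more. No share over all genes was computed for this count. The flattest gene by the range of the other 4 values was 1094282, chosen after its values were seen. It was at 3.33 on straw, against 4.57 on pine, 4.72 on aspen, 4.67 on cellulose and 4.68 on maltose. The abundant gene 1611008 was likewise flat elsewhere, at 11.25 on straw, against 12.43 on pine, 12.43 on aspen, 12.26 on cellulose and 12.48 on maltose, and its gap of 1.01 is close to the limit. In the other 20 genes a second difference of 2-fold or more lay on top of the low straw value.

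Lowest on straw did not always mean lowered on straw alone. In 37 genes none of pine, aspen and cellulose was lower than maltose by 1 or more. In the other 7 at least 1 of them was: pine in all 7, cellulose in 5 and aspen in 3. These are 15.9%, 11.4% and 6.82% of the set, against 9.41%, 3.83% and 6.41% of all genes, so the aspen share is near that of the table. For the 37 and the 7 no share over all genes was computed. In these 7 genes pine lay between maltose and straw, at least 2-fold from either. They include 1594358 and 1507311 above. Gene 1584107 was at 4.10 on straw, against 5.40 on pine, 6.51 on aspen, 5.31 on cellulose and 7.06 on maltose, and had the most negative cellulose minus maltose difference of the set (-1.75). Gene 291324 was at 6.96 on straw, against 7.96 on pine, 8.82 on aspen, 8.88 on cellulose and 9.19 on maltose, so that pine was 1.23 below maltose and straw a further 1.00 below pine.

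**Figure D3:**
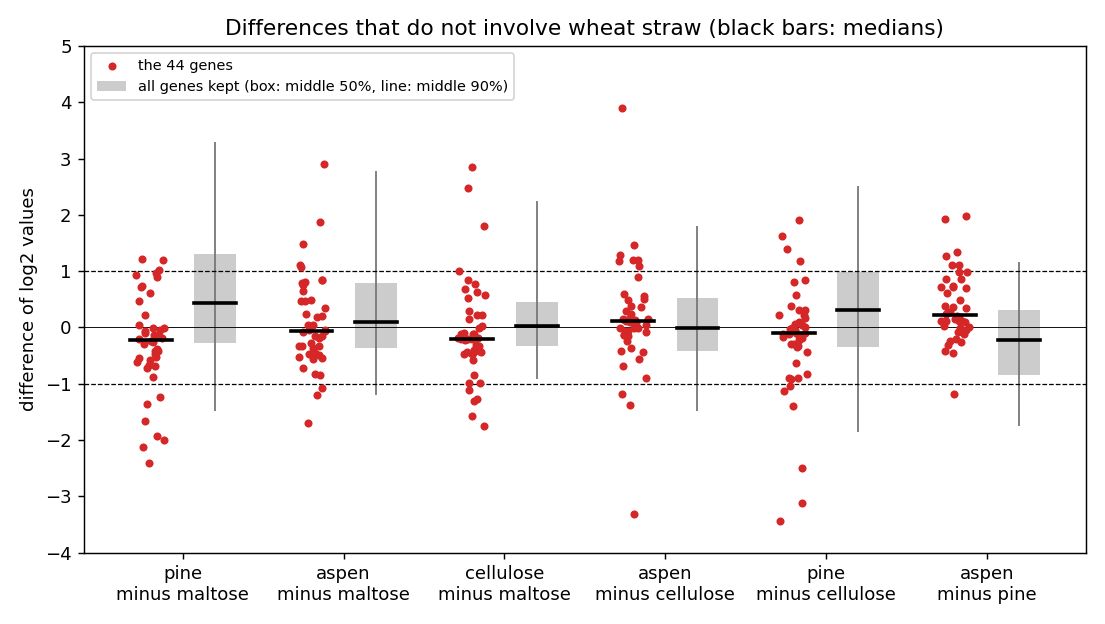
Differences of log2 values (y axis) in the 6 comparisons that leave wheat straw out (x axis), for the 44 genes (red points) and for all 967 genes (grey boxes and lines). Most points lie between the dashed lines at -1 and 1, and the median of the set is below that of all genes in pine minus maltose and above it in aspen minus pine.

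The 6 comparisons without straw show how the set varied among the other substrates. The choice of the genes limits these differences only in part, through the lowest value and the second condition. On pine, 3 of the 44 genes were higher than on maltose by 1 or more (32.2% of all genes) and 7 were lower (9.41%). Their median pine minus maltose difference was -0.22, against 0.43 for all genes. Rescaling moved the set and the table together. With centred columns 0 genes of the set were higher and 19 lower, against 18.2% and 23.7% of all genes, and with quantile normalization 0 and 15, against 18.0% and 20.9%. With the median difference per gene set to 0 they were 0 and 12, against 22.9% and 16.5%. The median of the set stayed below that of all genes in each of these (-0.88 against -0.24, -0.73 against -0.17 and -0.63 against 0.01).

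On aspen, 5 of the genes were higher than on maltose (21.0% of all genes) and 3 lower (6.41%), with a median of -0.06 (0.10 for all genes). With centring 2 were higher and 10 lower (13.3% and 19.8% of all genes), with quantile normalization 3 and 9 (15.8% and 16.3%), and with the median difference per gene set to 0 they were 3 and 3 (18.5% and 8.58%). The shift toward lower genes on aspen with centring was thus shared by the whole table. On cellulose, 3 were higher than on maltose (12.5%) and 5 lower (3.83%), with a median of -0.20 (0.03 for all genes). With centring and with quantile normalization 3 were higher and 8 lower, against 9.41% and 8.89% of all genes with centring, and 9.82% and 8.79% with quantile normalization.

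Against cellulose, 7 of the genes were higher on aspen (14.7% of all genes) and 3 lower (8.79%), and 4 were higher on pine (24.7%) and 6 lower (11.7%). The medians were 0.11 for aspen and -0.11 for pine, where all genes had -0.01 and 0.31. With centring 3 were higher and 4 lower on aspen (11.5% and 12.8% of all genes), shares near those of the table, and the median for aspen turned to -0.12. With quantile normalization 8 were higher and 4 lower on aspen (14.3% and 11.3%), with a median of -0.0046. On pine 3 were higher and 10 lower with centring (17.6% and 18.4% of all genes), and 4 and 10 with quantile normalization (17.6% and 17.4%).

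Between the woods, 6 genes were higher on aspen than on pine (7.03% of all genes) and 1 was lower (20.1%), with a median of 0.22 (-0.23 for all genes). That 1 gene is 1591844, at 8.42 on aspen against 9.59 on pine. With centring 9 were higher and 1 lower (9.20% and 16.2% of all genes), and with quantile normalization 10 and 1 (12.3% and 10.8%). With the median difference per gene set to 0 they were 13 and 0 (12.5% and 13.0%). The medians under these treatments were 0.36, 0.42 and 0.50 in the set and -0.09, 0.00 and 0.06 over all genes.

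Pine was the lowest of the other 4, and so nearest to straw in this set, for 21 of the 44 genes. It was the lowest of the 4 in 20.6% of all genes. Cellulose was the lowest of the 4 for 13 genes of the set (21.7% of all genes), maltose for 6 (33.8%) and aspen for 4 (23.9%). The highest value of the 4 was that on maltose for 18 genes of the set (20.4% of all genes), on aspen for 12 (15.5%), on cellulose for 10 (18.3%) and on pine for 4 (45.8%). A pine value has to stay above straw to enter the set, and these counts move with the scaling of the columns. Pine was nearest to straw for 31 of the 44 genes with centring and 29 with quantile normalization. It was nearest for 32 with the median difference per gene set to 0. The shares over all genes under these scalings were not computed, so the rise cannot be told apart from a shift of the whole table.

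Single genes departed from this pattern. Gene 1682917 had the largest positive differences of aspen from pine, cellulose and maltose in the set. It was at 3.75 on wheat straw, against 6.90 on pine, 8.88 on aspen, 4.98 on cellulose and 5.97 on maltose. It was 35.2-fold lower on straw than on aspen and 2.35-fold lower than on cellulose, and its aspen value was 1.99 above pine and 2.91 above maltose. Gene 681159 was at 10.96 on straw, against 13.67 on pine, 13.23 on aspen, 12.05 on cellulose and 12.46 on maltose. It had the highest mean read count of the set and the largest pine minus maltose difference, 1.21. In 7 genes of the set both woods lay above both cellulose and maltose (30.4% of all genes). In 12 genes both woods lay below them (17.6% of all genes), a number that the second condition caps.

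Gene 676559 had the largest positive cellulose minus maltose difference of the set. It was at 6.35 on straw, against 7.51 on pine, 7.63 on aspen, 10.94 on cellulose and 8.09 on maltose. Cellulose was 2.85 above maltose, and straw was 24.2-fold below cellulose and 2.24-fold below pine. It also lay nearest to the limit of the second condition, at 0.46, since both woods were below maltose.

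Part of the set had few reads. On straw, 7 of the 44 genes were below the log2 level of 3.32 (10 normalized counts) that a gene had to reach on 2 substrates to be kept, against 3.31% of all genes. The filter was passed through pine and aspen only by 2 genes, and 41 genes reached it on all 4 other substrates. Gene 1594123 had the lowest straw value, 1.19 (2.28 normalized counts), against 3.97 on pine, 4.33 on aspen, 3.13 on cellulose and 3.25 on maltose. Gene 1515302 was at 2.09 on straw, against 3.28 on pine, 4.14 on aspen, 3.63 on cellulose and 3.35 on maltose. With 8 added to the linear values the gaps of these 2 genes became 0.71 and 0.53, against 1.94 and 1.20 without it. Among genes whose other 4 values averaged under 5, 11.1% were in the set. The shares were 5.06% for averages from 5 to under 8 and 3.33% from 8 upward. Counting error is largest for the lowest counts, and its part in the set was not tested. The 19 genes with an average of 8 or more had straw values from 6.05 to 11.25 and included 4 of the 6 genes with a gap of 2 or more.

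**Figure D4:**
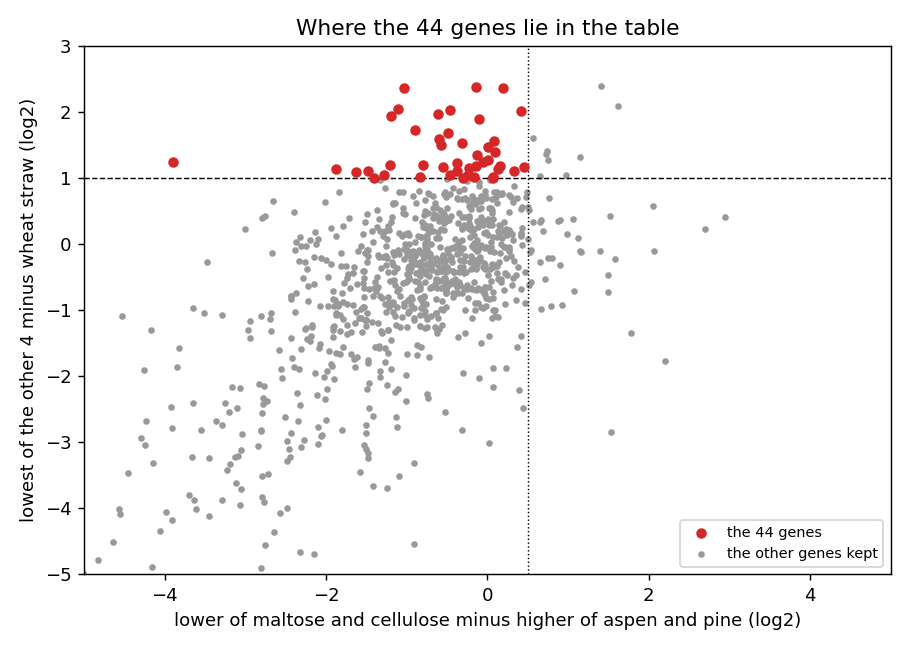
Gap between the lowest of the other 4 substrates and wheat straw (y axis, log2) against the lower of maltose and cellulose minus the higher of aspen and pine (x axis, log2), for the 44 genes (red) and the other genes kept (grey), with 35 genes outside the axes. The dashed and dotted lines are the limits at 1 and 0.5, and the genes continue across both without a break.

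The limits cut through a continuous distribution. A gap of 1 or more was found in 53 genes (5.48% of all genes), and the second condition left out 9 of them. Just inside the first limit were genes 291324, 1111109 and 1579911, with gaps of 1.00, 1.01 and 1.01. Just outside were genes 1624476, 1545604 and 294670, with gaps of 0.998, 0.979 and 0.976. Gene 1111109 was at 4.77 on straw, against 7.17 on pine, 6.86 on aspen, 5.77 on cellulose and 6.21 on maltose. Gene 1624476, left out, was at 8.06 on straw, against 9.07 on pine, 9.06 on aspen, 9.37 on cellulose and 9.10 on maltose, and differs from many members by the size of its gap alone. Gene 1579911, with a small gap but many reads, was at 8.75 on straw, against 9.76 on pine, 10.36 on aspen, 10.06 on cellulose and 10.17 on maltose. By the second condition, genes 676559, 1507311 and 789331 were just inside, at 0.46, 0.42 and 0.33, and genes 1594646, 1275797 and 1723055 just outside, at 0.57, 0.66 and 0.73. Gene 789331 was at 3.46 on straw, against 4.57 on pine, 4.71 on aspen, 5.61 on cellulose and 5.04 on maltose.

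A level lowest by 2-fold on a single substrate was found in more genes for straw and for maltose than for the other substrates. Without the second condition, 53 genes (5.48% of all genes) were lowest by 1 or more on wheat straw. The counts were 4 on pine (0.41%), 6 on aspen (0.62%), 9 on cellulose (0.93%) and 64 on maltose (6.62%). With centred columns the counts were 41 on straw, 7 on pine, 9 on aspen, 11 on cellulose and 43 on maltose. With quantile normalization they were 30 on straw, 7 on pine, 8 on aspen, 12 on cellulose and 49 on maltose. With the median difference per gene set to 0 they were 37 on straw, 11 on pine, 4 on aspen, 12 on cellulose and 55 on maltose. With 8 added to the linear values they were 31 on straw, 3 on pine, 4 on aspen, 7 on cellulose and 62 on maltose. No test of the difference between substrates was possible without values per library.

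Gene IDs are a property that the choice of the genes did not use. Of the 44 genes, 5 (11.4%) had another gene of the table within 10 IDs, close to the 136 of all 967 genes (14.1%) that did. In none of these 5 was that neighbour itself in the set. When the 967 genes were sorted by ID, 9 of the 44 stood next to another gene of the set, in 4 runs. How many would do so for genes picked at random was not computed. The longest run, genes 1507154, 1507189 and 1507311, spanned 157 IDs. The other runs were pairs that spanned 1675, 4600 and 5078 IDs. The genes of the longest run were singled out after their values were seen. Gene 1507154 was at 8.36 on straw, against 10.93 on pine, 10.82 on aspen, 10.95 on cellulose and 10.32 on maltose. Gene 1507189 was at 7.36 on straw, against 9.26 on pine, 9.99 on aspen, 9.88 on cellulose and 11.19 on maltose. The last of them, 1507311, and 1507189 were both highest on maltose and next lowest on pine, while 1507154 was lowest on maltose among the other 4. No genome was used here, so no position is given to these IDs.

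Of the 664 genes outside the set whose 5 values spanned 1 or more, those that most resembled the mean pattern of the set were 257936, 1513416 and 373147, with Pearson's r of 0.99, 0.98 and 0.97 over the 5 substrates. This is a description over 5 values, of which the low straw value weighs most. Gene 1513416 was at 9.54 on straw, against 10.28 on pine, 10.58 on aspen, 10.55 on cellulose and 10.66 on maltose. The gaps of these 3 genes were 0.73, 0.74 and 0.80, so they share the pattern at a smaller size.

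**Figure D5:**
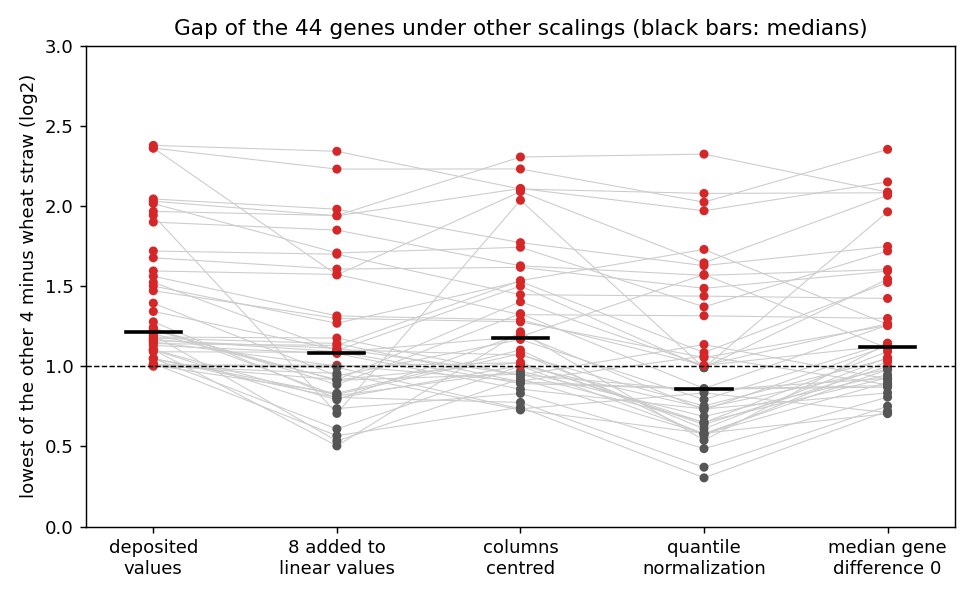
Gap of the 44 genes (y axis, log2) on the deposited values and under 4 other treatments of the columns (x axis), with a grey line per gene, red points at 1 or more, dark points under 1 and black bars at the medians. The median gap is 1.21 on the deposited values and lowest, at 0.86, with quantile normalization.

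The size of the set depended on the scale and the scaling. With 8 added to the linear values, 25 of the 44 genes kept a gap of 1 or more. With centred columns 30 did, with quantile normalization 19, and with the median difference per gene set to 0 28. The smallest gap of any of the 44 genes was 0.50, 0.73, 0.30 and 0.70 under these 4 treatments. The gene with the largest gap, 1475333, was between 2.08 and 2.38 in every alternative run. The other 5 genes with a gap of 2 or more stayed between 1.37 and 2.35 outside the deposited values and the 2 filters. Of these 6 genes, 4 remained in the set with centring and 4 with quantile normalization. The others kept a gap over 1 there but no longer met the second condition. The 27 genes not named by the fixed choice of examples had straw values from 2.19 to 10.06 with a median of 4.74, and gaps from 1.01 to 1.97.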

How the data were processed

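Per the file headers, the authors deposited normalized log2 read counts, with 1 value for a gene on each substrate. The submitters' processing notes list DESeq (version 1.5), HTSeq and TopHat2 without saying what each was used for. Paired reads of 150 bases were made from polyadenylated RNA, per the labels' protocols. Not given in the sources used here are the genome build, strand setting, size factors, any added value and the way libraries were combined. The table had 1000 rows. Of these, 23 repeated rows were dropped, and 10 of 977 genes that did not reach log2 3.32 on 2 substrates were removed, which left 967. The planned limma test needs values per library and could not be fitted to a single value per substrate. Differences are sizes without a test, and 2-fold means 1 on the log2 scale.

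Members and lists were chosen with earlier results of these data known. Examples were named by a rule: the 6 largest and 3 smallest gaps, the 3 genes on either side of each limit, the 2 genes of highest and of lowest mean, the extreme members of each comparison without straw, members with neighbouring IDs, and the 3 most alike genes outside the set among those with a range of 1 or more. This gave 17 members and 9 other genes. Counting functions were tested on simulated data. Alternatives were no filter, a filter at log2 5, 8 added to the linear values, centring, quantile normalization, other limits, and 1 wood left out. Python 3.11.15 and pandas 2.3.3 were used.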

Additional observations from a re-analysis of the deposited data

How the results depend on the processing

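The 44 genes were 44 without a filter and 36 with the stricter filter at log2 5. The number became 25 with 8 added to the linear values (all 25 among the 44), 24 with quantile normalization (17 among the 44), and 29 with the median difference per gene set to 0 (28 among the 44), an alternative chosen after the data were seen. Centring gave 32 genes (28 among the 44). A gap of 2 or more left 6 genes, and a gap of 0.8 gave 57. Dropping the second condition gave 53 genes, and a limit of 1 in it gave 50. Leaving pine out of the conditions gave 62 genes, and leaving aspen out gave 55, with 37 of the 44. The number for which pine was nearest to straw, 21, became 31 with centring, 29 with quantile normalization and 32 with the median difference per gene set to 0. Lowering the pine column relative to the others raises this number by construction. Median differences of straw from each substrate stayed at or beyond -1 in each filter and scaling run, the smallest being -1.06 from pine with quantile normalization. The choice of the genes fixes their direction. Of the 17 named members, 9 kept their membership with 8 added, 9 with centring, 6 with quantile normalization and 11 with the median difference per gene set to 0. The cause of these losses was not tested. No library could be left out and no paired analysis was possible because the table holds no values per library. The unknown depth limits most the 7 genes with straw values under 10 normalized counts.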
